A study of Mus musculus with 8 samples.

Results

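The cytochrome P450s Cyp2e1, Cyp2b10, Cyp4b1, Cyp4v3, Cyp27a1 and Cyp1b1 were followed in brown adipose tissue (BAT) of wild-type (WT) and db/db mice. With them were read Por, the electron donor of the microsomal P450s, and the epoxide hydrolases Ephx1 and Ephx2. All 9 are among the 31053 genes in the count table and were matched to their Ensembl identifiers by symbol. These 9 genes were chosen by name from the families with the db/db against WT differences of the same 8 libraries already known, so their differences, and the number of them past a threshold, are given only as a description. Bulk RNA-seq was performed on 4 WT and 4 db/db samples, all male and 8 weeks of age, taken after a fast. WT mice were C57BL6/J, a strain name the labels also give for db/db. The study's methods instead name the db/db strain as B6.BKS(D)-Leprdb/J, so whether the genetic background was fully shared is unclear. The db/db mice carried the Leprdb mutation of the leptin receptor gene in every cell. The study's methods give Charles River as the source of WT mice in the text but The Jackson Laboratory in the list of resources, and The Jackson Laboratory for db/db, so whether supplier differed with genotype is unclear. The study's legends give 4 mice per genotype for these libraries.

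P450s are haem enzymes that insert 1 atom of oxygen into a substrate, and those of the endoplasmic reticulum take their electrons from the reductase encoded by Por, whereas the mitochondrial ones, such as the product of Cyp27a1, use a ferredoxin. Substrates include drugs, ethanol, sterols, retinoids and fatty acids. Some P450s turn polyunsaturated fatty acids into epoxides, which the soluble epoxide hydrolase encoded by Ephx2 opens to diols, while the microsomal enzyme encoded by Ephx1 acts mainly on foreign epoxides. In adipose tissue, Cyp2e1 has been described together with the retinaldehyde dehydrogenase gene Aldh1a1 as a marker of a rare adipocyte population that influences thermogenesis.

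Total counts ran from 2374079 to 3240074 per library, and the smallest level taken as detectable, 3 counts, lay between 0.902 and 1.33 CPM (a count relative to the total of its library). CPM values are scaled by the library size and the TMM factor, and floors cover counting error only. The labels name the cells as stromal vascular fraction, but the adipocyte genes Adipoq and Plin1 were at 1245 to 2112 and 388 to 954 CPM, so that mature adipocyte RNA was present in all 8 libraries. The summed level of 15 skeletal muscle genes was 506 to 1807 CPM in WT but 2463 to 12398 CPM in db/db, highest in db/db replicate 1. Of the 8 macrophage markers and the 8 fibroblast and progenitor markers, the sums did not overlap either, at 145 to 185 against 673 to 1208 CPM and at 490.4 to 608 against 943 to 1969.9 CPM. The 6 white adipocyte markers summed to 107 to 325 CPM in WT and to 1913 to 2938 CPM in db/db. The 7 endothelial markers summed to 260.2 to 331 CPM in WT and to 211 to 244 CPM in db/db, and the 8 brown adipocyte markers to 8911 to 10577 CPM and 3733 to 6781 CPM. Such sums are weighted by their most abundant genes. At an edgeR adjusted p of 0.05, 2 of 6 tested endothelial and 5 of 6 tested brown markers were lower. Of the white markers, 5 of 6 were higher, beside 27.7% of all genes passing. The sum of the 7 general adipocyte markers overlapped, at 16932 to 27223 CPM in WT and 17439 to 22875 CPM in db/db. In bulk tissue, fewer cells of a type and less RNA per cell cannot be told apart.

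Promoter sequence is shown for the 4 members that had a RefSeq promoter window and whose WT and db/db libraries did not overlap, 1 of them lower and 3 higher in db/db. Each runs 5′ to 3′ on the gene's strand from 250 bases before the RefSeq start (GRCm38.p6) to the start itself or to the first base that GENCODE M21 annotates as an exon of the gene. Capitals mark matches on either strand to a TATA box, read as TATAAA. They also mark a CCAAT box, read as CCAAT. A GC box was read as GGGCGG. The core bound by the xenobiotic sensor AHR with its partner ARNT was read as GCGTG. The hexamer bound by many nuclear receptors was read as AGGTCA. The Cyp2e1 stretch is chr7:140763569-140763738 (plus strand), the Cyp4b1 stretch chr4:115647724-115647971 (minus strand), the Ephx1 stretch chr1:181017570-181017819 (minus strand, inside the annotated gene but in no exon of it) and the Cyp4v3 stretch chr8:45333217-45333413 (minus strand).
Cyp2e1: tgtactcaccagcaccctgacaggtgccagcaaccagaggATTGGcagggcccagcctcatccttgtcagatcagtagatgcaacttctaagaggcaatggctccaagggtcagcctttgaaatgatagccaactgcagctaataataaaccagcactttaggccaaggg
Cyp4b1: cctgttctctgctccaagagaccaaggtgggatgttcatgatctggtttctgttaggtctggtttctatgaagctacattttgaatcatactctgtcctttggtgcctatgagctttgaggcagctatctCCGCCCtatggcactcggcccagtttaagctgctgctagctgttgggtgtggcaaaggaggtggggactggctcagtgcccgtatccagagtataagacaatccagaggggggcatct
Ephx1: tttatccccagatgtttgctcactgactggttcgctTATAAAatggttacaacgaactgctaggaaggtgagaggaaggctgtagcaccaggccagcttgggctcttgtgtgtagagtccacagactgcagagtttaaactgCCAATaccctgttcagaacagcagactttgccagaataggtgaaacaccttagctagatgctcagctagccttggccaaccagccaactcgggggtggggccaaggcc
Cyp4v3: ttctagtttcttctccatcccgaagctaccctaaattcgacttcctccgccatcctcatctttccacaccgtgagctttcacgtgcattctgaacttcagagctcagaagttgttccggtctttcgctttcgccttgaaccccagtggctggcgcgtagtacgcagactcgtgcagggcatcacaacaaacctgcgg

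The printed stretches of Cyp2e1 and Ephx1 both hold a CCAAT box, that of Ephx1 also a TATA box and that of Cyp4b1 a GC box, while that of Cyp4v3 holds none of the 5 motifs. Over the full windows, which reach 50 bases past the start, 8 members had a sequence and 6 of them held a GC box, among them Cyp4b1, Cyp4v3 and Ephx1 but not Cyp2e1 and Cyp2b10, against 35.7% of all 32851 windows. A CCAAT box was found in 4 members and 37.4% of all windows, a TATA box in Cyp2e1 and Ephx1 and in 13.6% of all windows, and the AHR and ARNT core in Por, Cyp2b10, Cyp4v3 and Cyp1b1 and in 32.4% of all windows. The nuclear receptor hexamer was in 0 of the 8 windows and in 16.3% of all. A match describes letters only.

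To see how the family stood in WT and db/db BAT, all 9 members were read in every library (the plot of members by library). All 9 passed the filter on low counts. In the fit over all 9264 genes tested, 6 members passed an adjusted p of 0.05, 4 higher and 2 lower in db/db, beside 27.7% of all genes passing, 15.8% higher and 11.9% lower. Since the members were chosen on this difference, nothing is read from their count. The CPM values of 5 members did not overlap between WT and db/db, as in 28.1% of all genes. The median log2 fold change was 0.66 over the members and 0.01 over all genes.

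**Figure D1:**
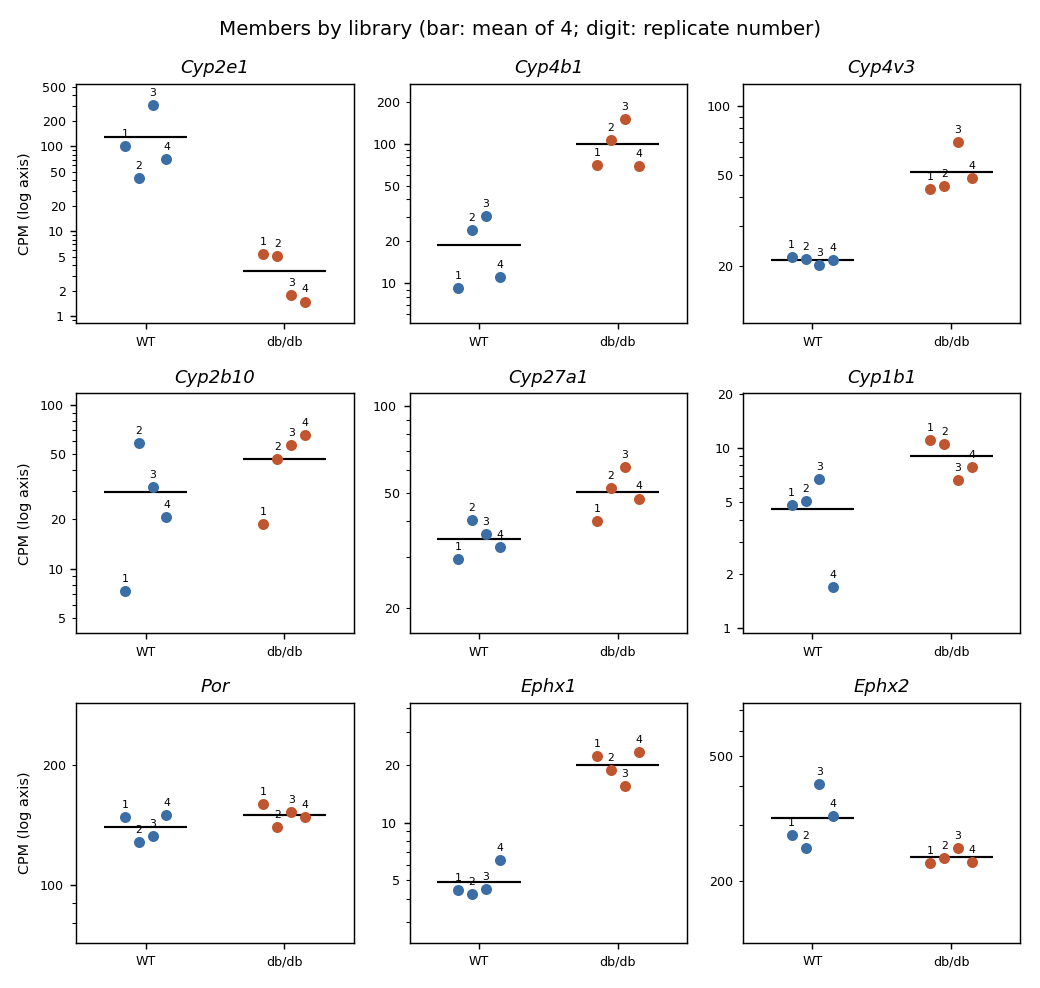
CPM of the 9 members in each library (log axis, a separate scale per panel), with WT in blue, db/db in orange, the replicate number above each point and the mean of 4 as a bar. Cyp2e1 and Ephx2 lie lower in every db/db library than in any WT library, Cyp4b1, Cyp4v3 and Ephx1 lie higher, and the other 4 overlap.

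Cyp2e1 (ENSMUSG00000025479, chromosome 7, 140763739 to 140774987, mm10), whose enzyme oxidises ethanol, acetone and other small molecules, was at 99.96, 42.6, 305 and 70.9 CPM in WT replicates 1 to 4 and at 5.41, 5.09, 1.77 and 1.49 CPM in db/db replicates 1 to 4. WT replicate 3 stood highest and the lowest WT library was still above every db/db library, the latter resting on 18, 16, 4 and 4 counts. The fitted difference was −5.15 on the log2 scale (SE 0.57), a level 35.4-fold higher in WT. Without WT replicate 3 the difference was the smallest of the 8 fits that left out 1 library, at −4.30. With the skeletal muscle score in the model it was −4.36 (SE 0.88). That score, the mean log2 level of the 15 skeletal muscle genes, did not overlap between the genotypes. Its effect and that of genotype therefore cannot be cleanly told apart in any fit that holds it. Because Cyp2e1 is abundant in liver, 15 hepatocyte genes were read beside it: 11 had 0 counts in all 8 libraries, among them Ttr, Apob, Fga and Cyp3a11, and the albumin gene Alb had 0 to 4 counts in WT and 3 to 12 in db/db. The exception was Apoc3, an apolipoprotein gene, at 3.24, 2.95, 18.8 and 3.82 CPM in WT and 0 to 2.41 CPM in db/db, so that it too was highest in WT replicate 3. Its part in the result was not tested. Aldh1a1, described with Cyp2e1 in the same adipocytes, went the other way, from 5.26, 10.6, 14.7 and 10.6 CPM in WT to 103, 56.0, 69.1 and 46.9 CPM in db/db.

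Cyp4b1 (ENSMUSG00000028713, chromosome 4, 115624725 to 115647723), which encodes a hydroxylase of fatty acids and of some foreign compounds, was at 9.31, 24.1, 30.4 and 11.04 CPM in WT and at 70.7, 105, 149 and 69.2 CPM in db/db. Its lowest db/db library was above its highest WT library, and the difference was 2.38 on the log2 scale (SE 0.32), or 5.21-fold. Cyp4v3 (ENSMUSG00000079057, chromosome 8, 45304944 to 45333216), the mouse counterpart of a human fatty acid hydroxylase gene mutated in a crystalline retinal dystrophy, was at 21.9, 21.5, 20.3 and 21.2 CPM in WT and at 43.3, 44.9, 69.6 and 48.4 CPM in db/db. The 4 WT libraries of Cyp4v3 were nearly level, with a coefficient of variation of 3.17%, against 23.7% in db/db, where replicate 3 stood highest. The difference was 1.27 on the log2 scale (SE 0.19), 2.41-fold. Since 313 of its exon bases are shared on the same strand with Gm45753, a protein-coding locus, counting could split its reads and its level is uncertain. Both Cyp4 genes were highest in db/db replicate 3.

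Cyp2b10 (ENSMUSG00000030483, chromosome 7, 25897620 to 25926624), known in liver as the drug-inducible target of the nuclear receptor CAR, was at 7.28, 58.7, 31.6 and 20.8 CPM in WT and at 18.7, 47.1, 56.7 and 65.5 CPM in db/db. Both genotypes held a low library, replicate 1 in each, and the ranges overlapped. The difference was 0.66 on the log2 scale (SE 0.42) and did not pass the threshold. It ran from 0.32 to 1.21 over the fits without 1 library, the largest without WT replicate 2, and passed in 1 of the 8. It was 0.80 (SE 0.27) with the replicate number as a block, 0.62 (SE 0.19) with every gene of at least 1 count fitted and 1.09 (SE 0.61) with the muscle score in the model. Its near relatives Cyp2b9, Cyp2b13, Cyp2b19 and Cyp2b23 had 0 counts in all libraries, as had Nr1i3, the gene of CAR, of whose exon bases 3304 are shared with Tomm40l on the other strand, so that counting could drop its reads.

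Cyp27a1 (ENSMUSG00000026170, chromosome 1, 74713574 to 74737892), whose mitochondrial enzyme hydroxylates the side chain of cholesterol and is abundant in macrophages and liver, was at 29.5, 40.5, 36.1 and 32.7 CPM in WT and at 40.0, 52.2, 61.6 and 48.0 CPM in db/db. The ranges met, since WT replicate 2 was just above db/db replicate 1. The difference was 0.53 on the log2 scale (SE 0.17), or 1.45-fold, and ran from 0.42 to 0.63 over the fits without 1 library. It was 0.59 (SE 0.30) with the muscle score in the model. Cyp27a1 passed the threshold in 3 of the 8 fits without 1 library. The macrophage markers, given above, moved in the same direction, and their part in the result was not tested. Cyp1b1 (ENSMUSG00000024087, chromosome 17, 79701537 to 79715061), an AHR target that hydroxylates oestrogens and is typical of stromal cells, was at 4.86, 5.06, 6.76 and 1.70 CPM in WT and at 11.1, 10.5, 6.65 and 7.81 CPM in db/db. These values rest on 4 to 18 counts in WT and 15 to 37 in db/db, and WT replicate 3 was just above db/db replicate 3. The difference was 0.97 on the log2 scale (SE 0.38) and did not pass the threshold. It ran from 0.69 to 1.199 over the fits without 1 library, the largest without WT replicate 3 (SE 0.42), and passed in 1 of the 8. With the muscle score in the model it was 1.13 (SE 0.66). The fibroblast and progenitor markers also moved in this direction, and their part was not tested.

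Por (ENSMUSG00000005514, chromosome 5, 135670033 to 135735326), the electron donor shared by the microsomal P450s, was at 149, 128, 133 and 150.3 CPM in WT and at 159, 139.7, 153 and 148 CPM in db/db. The libraries overlapped throughout and Por varied least of the 9 members around the genotype means, with an SD of 0.10 in log2 CPM. Its difference was 0.10 on the log2 scale (SE 0.12) and ran from 0.05 to 0.13 over the fits without 1 library. It was 0.02 (SE 0.21) with the muscle score in the model.

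The epoxide hydrolase genes went in opposite directions. Ephx1 (ENSMUSG00000038776, chromosome 1, 180976210 to 181020904) was at 4.45, 4.22, 4.51 and 6.37 CPM in WT and at 22.3, 18.8, 15.5 and 23.4 CPM in db/db, a difference of 2.03 on the log2 scale (SE 0.27), 4.08-fold, with no overlap. It rests on 10 to 15 counts per WT library and 35 to 74 per db/db library, and 72 of its exon bases are shared with the pseudogene Gm36961. Ephx2 (ENSMUSG00000022040, chromosome 14, 66084374 to 66124500) was at 279.6, 254.1, 407 and 321 CPM in WT and at 229, 237, 253.5 and 230.3 CPM in db/db. The gap between the highest db/db library, replicate 3, and the lowest WT library, replicate 2, was narrow, while WT replicate 3 stood above the other WT libraries. The Ephx2 difference was −0.41 on the log2 scale (SE 0.15) and shrank to −0.29 without WT replicate 3. It was −0.41 (SE 0.25) with the muscle score in the model and −0.36 (SE 0.14) with at least 10 counts required in every library. Ephx2 passed the threshold in 2 of the 8 fits without 1 library, and Ephx1 in 8. Over the 8 fits without 1 library the difference of Ephx1 ran from 1.95 to 2.17, that of Cyp4b1 from 2.11 to 2.71 and that of Cyp4v3 from 1.09 to 1.34.

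**Figure D2:**
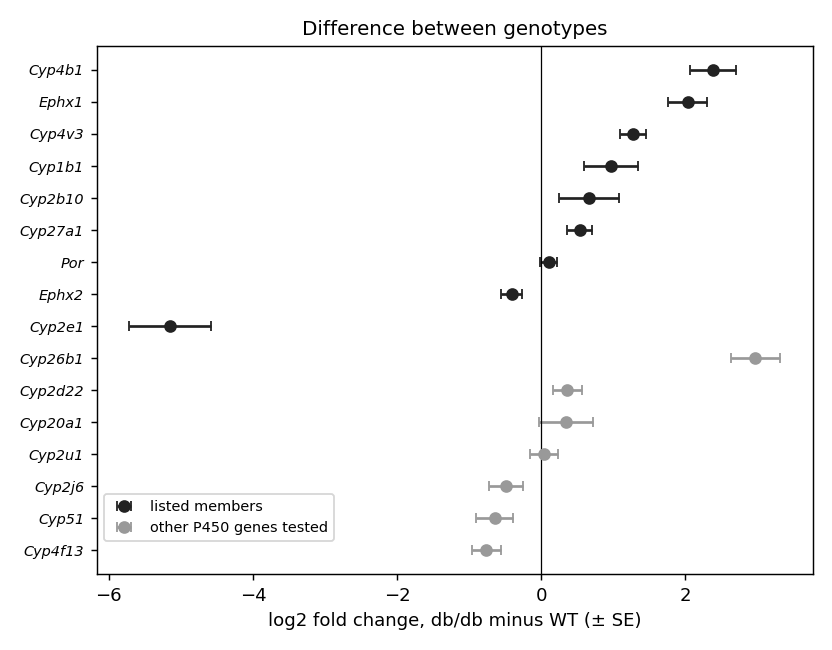
Log2 fold change of db/db minus WT with its standard error for the 9 members (black) and the 7 other P450 genes that could be tested (grey). Among the members, Cyp2e1 lies at −5.15 and Cyp4b1 at 2.38, while Por lies at 0.10. Among the others, Cyp26b1 lies at 2.97 and Cyp4f13 at −0.76.

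The order of the members' levels was read on a scale of CPM per kilobase of exon, which assumes that reads fall along the whole transcript. Whether the kit reads only transcript ends is not given in the sources used here. In WT, Ephx2 was first at 127 ± 27.0 CPM per kilobase (SD, n = 4), followed by Cyp2e1 at 60.1 ± 55.3, Por at 34.8 ± 2.76, Cyp27a1 at 16.0 ± 2.16, Cyp2b10 at 14.0 ± 10.3, Cyp4b1 at 8.29 ± 4.53, Cyp4v3 at 5.57 ± 0.176, Ephx1 at 2.51 ± 0.510 and Cyp1b1 at 0.787 ± 0.362. Neighbours whose WT libraries did not overlap were Por and Cyp27a1, Cyp4v3 and Ephx1, and Ephx1 and Cyp1b1. The other neighbours overlapped. In db/db, Ephx2 was again first at 95.5 ± 4.58 CPM per kilobase (SD, n = 4). Cyp4b1 came next at 43.7 ± 16.7, overlapping Por at 37.3 ± 2.07, and Cyp2e1, at 1.59 ± 0.972, overlapped Cyp1b1, at 1.54 ± 0.366, at the end of the order. On plain CPM, the mean of Por was above that of Cyp2e1 in WT (140 against 130). It was also above that of Cyp4b1 in db/db (150 against 98.6). There, Cyp2e1 lay below Cyp1b1 in every db/db library. Of the 6 P450s, Cyp2e1 had the highest WT mean and Cyp4b1 the highest db/db mean, but not in every library. In WT replicate 2, Cyp2b10 was above Cyp2e1, at 27.8 against 19.8 CPM per kilobase, and in db/db replicate 4 it was level with Cyp4b1, at 31.0 against 30.7. The WT mean of Cyp2e1 was carried by WT replicate 3, at 141 CPM per kilobase.

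Within genotypes, Cyp2b10 and Cyp2e1 varied most, with SDs of 1.03 and 1.01 in log2 CPM around the genotype means, followed by Cyp4b1 at 0.68 and Cyp1b1 at 0.55. The other members lay between 0.10 and 0.25. To see which genes varied with Cyp2b10, the deviations from the genotype means over the 8 libraries were compared with those of every tested gene with a mean of at least 5 CPM. The 5 most alike were Lpin1, which encodes a phosphatidate phosphatase and coregulator (r = 0.99), D10Jhu81e (r = 0.97), Ghitm, a gene of the inner mitochondrial membrane (r = 0.96), Cox8a, a subunit of cytochrome c oxidase (r = 0.96), and Zfp747 (r = 0.95). Lpin1 was at 207, 412, 327 and 301 CPM in WT and at 129, 180, 195 and 185 CPM in db/db, lowest in replicate 1 of each genotype, as Cyp2b10 was, although its level was lower in db/db. For Cyp2e1, added after its values were seen, the 5 genes most alike were Sumf1 (r = 0.98), the peroxisomal fatty acid transporter gene Abcd2 (r = 0.96), Rbm18 (r = 0.96), the mitochondrial carbonic anhydrase gene Car5b (r = 0.95) and Smg6 (r = 0.95). Abcd2 was at 19.8, 9.71, 45.5 and 12.7 CPM in WT, highest in replicate 3 as Cyp2e1 was, but at 62.9, 49.9, 35.0 and 37.2 CPM in db/db, where its mean was higher. These are the closest of many genes over 8 libraries that share depth and tissue, and are a description.

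**Figure D3:**
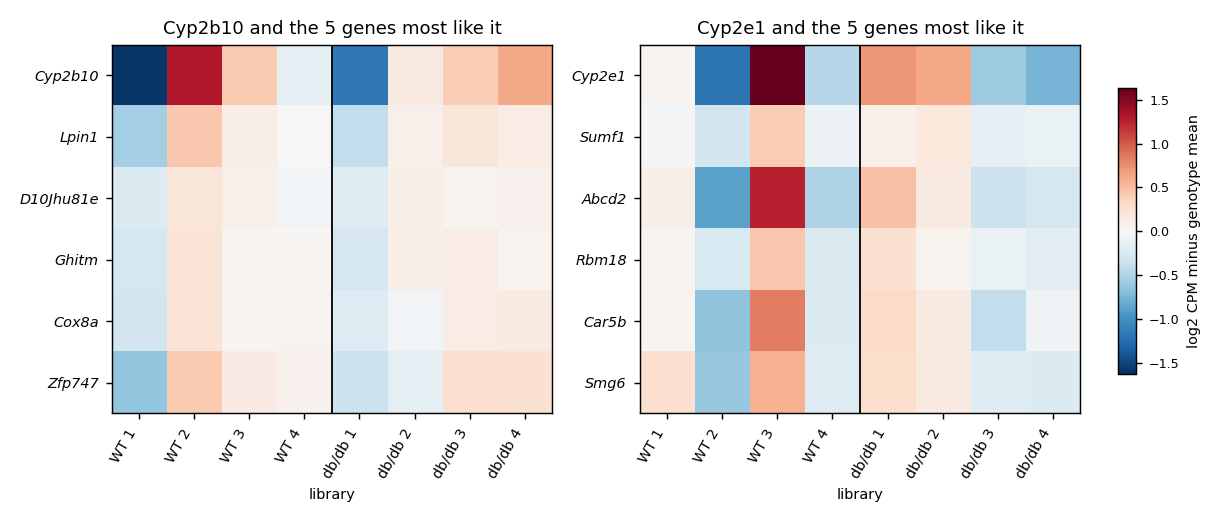
Log2 CPM minus the genotype mean, by library, for Cyp2b10 (left) and Cyp2e1 (right), each with the 5 genes most like it. Red is above and blue below the genotype mean, and the black line parts WT from db/db. Cyp2b10 is lowest in replicate 1 of each genotype and Cyp2e1 is highest in WT replicate 3, and the paler rows show that the similar genes varied less.

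To place the members in the family, the other protein-coding P450 genes of the annotation whose symbols end in a number were read, with Ptgis and Tbxas1, 91 genes in all. The 5 whose symbols end in a letter (Cyp3a41a, Cyp3a41b, Cyp4a12a, Cyp4a12b and Cyp4a30b) were not in this list and had 0 counts in all 8 libraries. At least 1 count was found for 26 of them and 7 could be tested, of which 2 passed (28.6%, beside 27.7% of all genes), 1 in each direction. Their median log2 fold change was 0.04. Cyp26b1, which clears retinoic acid, rose from 2.83, 3.38, 3.01 and 3.40 CPM in WT to 40.3, 14.6, 22.2 and 22.3 CPM in db/db (edgeR difference 2.97 on the log2 scale, SE 0.34, adjusted p 6.10e-06), with no overlap. Cyp4f13, of a family that hydroxylates fatty acids and eicosanoids, fell from 26.7, 23.6, 28.6 and 23.3 CPM to 14.4, 13.4, 19.1 and 13.8 CPM (edgeR difference −0.76 on the log2 scale, SE 0.20, adjusted p 0.00874), also with no overlap. The call on Cyp4f13 was lost with the muscle score in the model (−0.75, SE 0.36, adjusted p 0.259). Cyp2u1 had the highest mean of these genes, 58.9 ± 11.2 CPM in WT and 60.6 ± 15.3 CPM in db/db (SD, n = 4 each), and did not pass (edgeR difference 0.04 on the log2 scale, SE 0.19). It shares exon bases with 4930534D22Rik and is uncertain. Cyp2d22 was at 24.6 ± 6.45 and 31.5 ± 3.97 CPM (mean ± SD of 4 libraries each, edgeR difference 0.36 on the log2 scale, SE 0.20) and did not pass either. Too low to be tested, and named after their values were seen, were Tbxas1, the thromboxane synthase gene of platelets and macrophages, with 0 to 4 counts in WT and 4 to 42 in db/db, and Cyp1a1, with 2 counts in WT replicate 2 and 0 elsewhere.

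Summed over the 91 genes, the level was 170.5 ± 4.45 CPM in WT and 187 ± 24.2 CPM in db/db (SD, n = 4 each). This difference was not larger than the spread between replicates (exact two-sided permutation p = 0.229), although without db/db replicate 2 it was 27.7 CPM with p = 0.0286, where the 2 genotypes no longer overlapped.

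The 5 pathway lists that follow were written by hand with earlier results of these libraries known, so their counts and p-values describe these libraries and are not independent evidence, and nothing is read from how far a list's share lies from that of all genes. The P450 partners and genes of haem turnover gave 3 of 14 tested genes past the threshold (21.4%, beside 27.7% of all genes), all higher in db/db. These were Cyb5r1 and Cyb5r3, which encode cytochrome b5 reductases, and Blvra, a biliverdin reductase gene. Cyb5r1 rose from 48.8 ± 4.94 to 97.3 ± 16.6 CPM (mean ± SD of 4 libraries each, edgeR difference 0.997 on the log2 scale, SE 0.15, adjusted p 0.000106). Cyb5r3, which shares exon bases with Gm49463 and is uncertain, was at 131 to 136 CPM in WT and 161 to 238 CPM in db/db (edgeR difference 0.60 on the log2 scale, SE 0.14, adjusted p 0.00284), and Blvra rose by 0.79 on the log2 scale (SE 0.16). With the muscle score in the model 1 of the 14 passed, Blvra, while Cyb5r1 and Cyb5r3 lost their calls (0.65, SE 0.24, and 0.53, SE 0.23, on the log2 scale).

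Of the epoxide and oxylipin genes, 8 could be tested and 2 passed (25%, beside 27.7% of all genes), both higher in db/db. Alox5ap, which presents arachidonate to the lipoxygenase, rose from 4.45, 3.38, 5.64 and 4.67 CPM to 32.8, 11.8, 14.6 and 20.8 CPM (edgeR difference 2.13 on the log2 scale, SE 0.34, adjusted p 0.000164). Ltc4s, the leukotriene C4 synthase gene, rose from 15.4 ± 6.74 to 50.5 ± 7.94 CPM (mean ± SD of 4 libraries each, edgeR difference 1.70 on the log2 scale, SE 0.26). Both share exon bases with another locus (Gm19719 and Gm26542) and are uncertain. With the muscle score in the model Ltc4s passed and Alox5ap did not (1.51, SE 0.51, edgeR adjusted p 0.0789). Both are expressed in macrophages, whose 8 markers were all higher in db/db, and their part was not tested.

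Among xenobiotic and nuclear receptor regulators, 5 of 14 tested genes passed (35.7%), all lower in db/db, beside 27.7% of all genes passing and 11.9% lower, and the median of the 14 was −0.51. Ppara, the receptor that induces fatty acid oxidation genes and Cyp4a genes in liver, fell from 107, 71.7, 67.6 and 130 CPM to 15.3, 24.2, 39.5 and 59.5 CPM (edgeR difference −1.46 on the log2 scale, SE 0.31, adjusted p 0.00165), with no overlap. Arnt, the partner of AHR, fell by 0.72 (SE 0.20), Rxrb, a retinoid X receptor gene, by 0.74 (SE 0.17), Nr1h2, a liver X receptor gene, by 0.57 (SE 0.18) and Tiparp, an AHR target whose product represses AHR, by 0.78 (SE 0.22) on the log2 scale. The call on Nr1h2 was lost without WT replicate 2 or 4 or db/db replicate 1 or 4. The libraries of Tiparp overlapped, at 28.7 to 45.4 CPM in WT and 16.4 to 33.7 CPM in db/db. This gene also shares exon bases with 4931440P22Rik and is uncertain. Ahr itself held 4 to 13 counts per library and was not tested, and Nr1i2 and Nr1i3, the genes of the drug receptors PXR and CAR, had 0 counts in every library, which for Nr1i3 is uncertain for the overlap given above. With the muscle score in the model, edgeR called 0 of the 14, and 3 had an unadjusted p under 0.05.

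Of the other phase I genes, which oxidise or hydrolyse drugs, aldehydes and esters, 16 of 21 tested passed (76.2%, beside 27.7% of all genes), 7 higher and 9 lower, with a median of 0.00. Aldh1a1 rose by 2.73 (SE 0.28, edgeR adjusted p 1.66e-06) and its close relative Aldh1a7 by 1.25 on the log2 scale (SE 0.20). Reads of these 2 similar genes could be split by counting. Cbr3 was higher by 1.13 (SE 0.37), but its libraries overlapped (2.83 to 7.89 CPM in WT, 6.65 to 13.2 CPM in db/db) and its call was lost without WT replicate 1, 2 or 4 or db/db replicate 1 or 2 and with the replicate number as a block. Maoa rose by 1.09, while Maob, the other monoamine oxidase gene, fell from 102 ± 13.8 to 51.9 ± 14.9 CPM (mean ± SD of 4 libraries each, edgeR difference −0.98 on the log2 scale, SE 0.19, adjusted p 0.000839). The carboxylesterase genes Ces1f and Ces1d, near relatives of each other, fell by 2.59 (SE 0.35) and 0.89 (SE 0.23), and the paraoxonase gene Pon3 fell by 0.76 (SE 0.15). The libraries of Ces1d overlapped, at 269 to 517 CPM in WT and 144 to 313 CPM in db/db. With the muscle score in the model 3 of the 21 passed, Aldh1a1 (1.77, SE 0.34), Aldh1a7 (1.74, SE 0.28) and Ces1f (−3.49, SE 0.57), and 11 had an unadjusted p under 0.05.

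Of the phase II genes, which join drugs and electrophiles to glutathione, sulfate or methyl groups, 11 of 24 tested passed (45.8%, beside 27.7% of all genes), 8 higher and 3 lower, with a median of 0.30. Mgst3, a microsomal glutathione transferase gene, rose from 11.3 ± 6.29 to 34.8 ± 8.75 CPM (mean ± SD of 4 libraries each, edgeR difference 1.60 on the log2 scale, SE 0.30, adjusted p 0.00062). Nnmt, which methylates nicotinamide, rose by 1.46 (SE 0.33), Gsta3 by 1.30 (SE 0.40) and the sulfotransferase gene Sult1a1, which shares exon bases with Sgf29, by 0.95 (SE 0.17). Gsta4, whose enzyme conjugates the lipid peroxidation aldehyde 4-hydroxynonenal, fell from 109.8 ± 18.6 to 60.5 ± 7.95 CPM (mean ± SD of 4 libraries each, edgeR difference −0.86 on the log2 scale, SE 0.16, adjusted p 0.000478), with no overlap. Gstz1 fell by 0.58 (SE 0.15) and Gsto1 by 0.39 (SE 0.14). The call on Gsto1 was lost without any 1 WT library, without db/db replicate 1 or 3, with at least 10 counts required in every library and with the replicate number as a block, and that on Gsta3 without WT replicate 2 or 4 or db/db replicate 1. Gstz1 overlaps Pomt2 and Gm6566 and is uncertain. With the muscle score in the model 2 of the 24 passed, among them Mgst3 (1.73, SE 0.49), and 8 had an unadjusted p under 0.05.

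**Figure D4:**
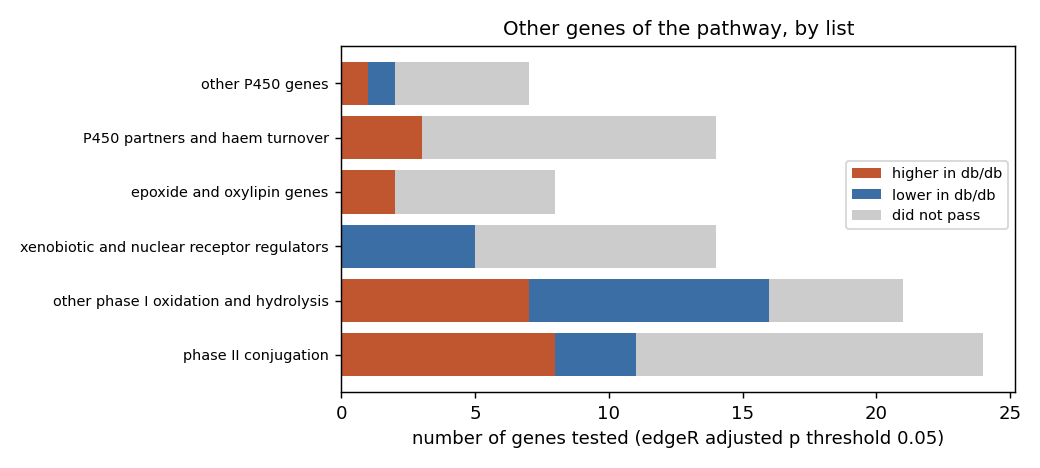
Number of tested genes in each of the 6 other lists that were higher in db/db (orange), lower in db/db (blue) or did not pass an edgeR adjusted p of 0.05 (grey). The regulators that passed are all lower, at 5 of 14, and the phase I list has the most genes passing, 16 of 21.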

How the data were processed

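BAT of 4 WT and 4 db/db mice was profiled by single-end mRNA sequencing, and genotype and replicate number were taken from the sample titles. The authors deposited raw counts per Ensembl gene. Per the study's methods, reads were trimmed with bbduk, aligned to mm10 with STAR and counted with HTSeq-count, whereas the submitters' processing notes list Trimmomatic and HISAT2. Strand setting and collapse of PCR copies are not given in the sources used here. The authors' log2 table and the sample sheet were not used. Replicates are labelled as separate samples. All pairs within a genotype differed by more than counting noise (chi-square per degree of freedom at least 3.99).

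Genes were filtered with filterByExpr (minimum count 10, minimum total 15), scaled by TMM and tested for genotype alone by quasi-likelihood in edgeR 4.0.16 under R 4.3.3, with Benjamini-Hochberg adjustment over 9264 genes. Standard errors come from the F statistic. P450 genes other than the members were taken by name from GENCODE M21, which matched 31011 of 31053 identifiers. The members and the other lists were chosen with earlier results of these data known. Named were all members, every gene past the threshold in lists with at most 8 of them, otherwise the 4 largest rises and falls with a mean of at least 5 CPM, and the 3 most abundant other P450s. Exon overlaps with other genes were read from GENCODE, promoters from RefSeq (8 of 9 members matched). Same-numbered libraries are different mice. Alternatives were DESeq2 1.42.0, limma-voom (3.58.1), 2 other scalings, 2 other filters, the replicate number as a block, a term for the skeletal muscle score, and leaving out each library.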

Additional observations from a re-analysis of the deposited data

Results flagged for a closer look

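In 20 groups of 4 libraries (the 9 members and the summed other P450s, in each genotype), 1 stood apart by Dixon's criterion, where chance gives about 1. This was Ephx1 in WT replicate 4, at 6.37 CPM against 4.22 to 4.51 CPM in the other WT libraries, which rests on 15 against 10 to 12 counts.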

How the results depend on the processing

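No direction turned for any member or any other gene compared under any alternative. The number of genes called moved by more than 1.5 times only when the skeletal muscle score was added as a covariate, to 678 in place of 2568. The score lay at −2.01 to −0.10 in WT and at −0.01 to 2.41 in db/db, so it went with genotype. A call lost with it therefore does not assign a difference to muscle or to genotype. The SE rose for all 9 members, while the difference of Cyp4b1 went from 2.38 to 2.35 (SE 0.32 to 0.50) that of Ephx2 stayed at −0.41 (SE 0.15 to 0.25), that of Cyp2b10 went from 0.66 to 1.09 (SE 0.42 to 0.61), that of Cyp2e1 from −5.15 to −4.36 (SE 0.57 to 0.88) and that of Por from 0.10 to 0.02 (SE 0.12 to 0.21). With the score in the model, the members past the threshold, a description here, numbered 4 of 9 in place of 6. The calls were 1 for the other P450s, 1 for the partners and 1 for the epoxide and oxylipin genes. They were 0 for the regulators (3 of 14 at an unadjusted edgeR p under 0.05), 3 for phase I and 2 for phase II. Requiring at least 10 counts in every library gave 1 other P450, out of 5 tested, and 1 epoxide and oxylipin gene, out of 6, beside 2018 of all 7333 genes. When every gene with 1 count or more was tested, the calls were 4 other P450s, out of 26, and 8 regulators, out of 16, beside 3170 of all 16410 genes. Both filters change which genes are tested.

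Without 1 library the members past the threshold, a description here, numbered 4 to 7 (6 in the full fit). The other P450s called ran from 2 to 4 (4 without WT replicate 1), the partners from 3 to 4, the epoxide and oxylipin genes from 2 to 3, the regulators from 4 to 6, phase I from 13 to 15, phase II from 9 to 11 and all genes from 2236 to 2483. The difference of the summed other P450s ran from 10.5 to 27.7 CPM, with its exact p under 0.05 only without db/db replicate 2. Outside the members, Adh1, Cbr3, Gsta3, Gsto1, Nr1h2 and Xdh each lost their call without at least 1 library.

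Adding the replicate block gave 2557 genes and 7 members past the threshold, and Cbr3 and Gsto1 lost their calls. Same-numbered libraries are different mice, and the deviations of such pairs correlated at −0.08 to 0.05. At this depth Cyp2e1 in db/db, Cyp1b1 and Ephx1 in WT rest on at most 18 counts per library.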
